A study of Cavia porcellus with 12 samples.

Results

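The 10 genes described here belong to the Hippo-YAP pathway or are among its best-known targets: *CCN1*, *CCN2*, *YAP1*, *WWTR1*, *TEAD1*, *TEAD2*, *TEAD4*, *AMOTL2*, *LATS2* and *AJUBA*. They were taken as a fixed list of symbols that, like the other lists below, was chosen with earlier results of these data known. All 10 were found among the 11896 human orthologue symbols of the deposited table. Expression was compared between the livers of 6 guinea pigs with NASH and 6 control guinea pigs, all female Dunkin Hartley animals. The controls had received chow and the animals with NASH a high-fat diet with added sucrose and cholesterol, in both cases for 25 weeks. The diets were started in young animals after acclimatisation, and no transgene, allele or drug was part of the design. The livers had not been perfused. The animals with NASH had been chosen for bridging fibrosis among the high-fat-fed animals, and the controls at random among animals without NASH and fibrosis, so intermediate stages are not represented. Animals are named by their label numbers: the controls are 5, 10, 31, 32, 45 and 56, and the NASH animals are 2, 9, 11, 20, 41 and 65.

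The Hippo pathway is a kinase cascade that limits organ size, and the liver is a classical organ in which its loss leads to overgrowth. The MST kinases activate the LATS kinases, which phosphorylate the coactivators YAP (*YAP1*) and TAZ (*WWTR1*) and so keep them out of the nucleus. Unphosphorylated YAP and TAZ bind the TEAD transcription factors and switch on targets such as *CCN1* and *CCN2*, and in the liver they are known for roles in bile duct cells, regeneration and stellate cell activation. Because the main switch is phosphorylation, transcript levels of the kinases and coactivators do not measure the activity of the pathway.

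Single-read sequencing was done on stranded mRNA libraries. Totals per library ran from 16980274 to 28636467 counts for controls and from 23704607 to 33091460 for NASH. Values are given as CPM, counts scaled to a common library total, after scaling with edgeR's TMM factors, which ran from 0.804 to 0.875 for controls and from 1.12 to 1.24 for NASH. A count of 0 still allows up to 3 counts, which is at most 0.214 CPM in a control and 0.105 CPM in an animal with NASH, and these limits cover counting error only. By edgeR's quasi-likelihood test with Benjamini-Hochberg adjustment, 53.9% of all 11896 genes were differentially expressed genes (DEGs) at an adjusted p under 0.05, 27.9% higher and 26.0% lower in NASH, and the median log2 fold change (log2FC, NASH over control) of all genes was 0.0018. All 6 animals with NASH exceeded all 6 controls in 18.4% of all genes, and the groups did not overlap in either direction in 33.7%. Without TMM factors, on library size alone, the median log2FC moved to 0.48, with 7603 genes higher and 911 lower, so small changes depend on the scaling. The rows of the count table carry StringTie numbers, and the nearest numbered rows with a symbol place *CCN1* between *ZNHIT6* and *DDAH1*, *CCN2* between *MOXD1* and *ENPP1*, *YAP1* between *ARHGAP42* and *BIRC3*, and *WWTR1* between *TM4SF4* and *COMMD2*. None of the 10 genes shared its count row with another symbol.

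Of the 10 genes, 4 were higher in NASH and none was lower. These were *CCN1*, *CCN2*, *TEAD2* and *AJUBA*. This is 40% of the genes, against the 27.9% of all genes that were higher. The samples are pieces of whole liver, so more cells of a type and more RNA per cell cannot be told apart. The median log2FC was 0.69, against 0.0018 over all genes. In *CCN1*, *TEAD2* and *AJUBA* the groups did not overlap, which is 30% of the genes against 18.4% of all genes. These 3 were also DEGs with a log2FC of at least 1, as were 12.8% of all genes. The other 6 genes did not pass the threshold, and in both *WWTR1* and *TEAD1* single animals with NASH lay far under the rest of their group. With library size alone, all 10 genes passed the threshold as higher, as did 63.9% of all genes, with a median of 1.17 where the median of all genes was 0.48.

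**Figure D1:**
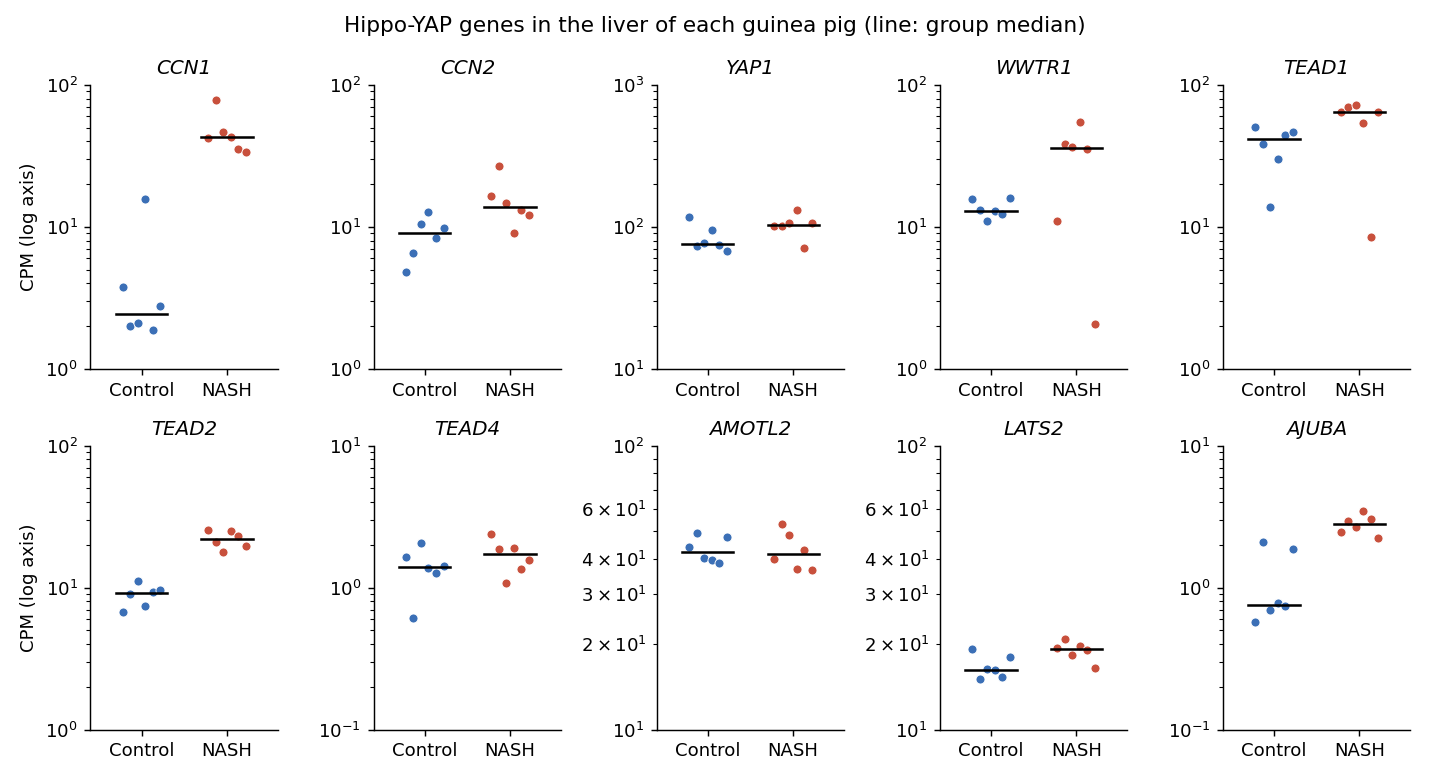
CPM (log axis) of each gene in each animal, with controls in blue and animals with NASH in red, and a line at the group median. In CCN1, TEAD2 and AJUBA all 6 animals with NASH lie above all 6 controls, whereas 1 or 2 animals with NASH lie far under the others in WWTR1 and TEAD1.

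The matricellular proteins CCN1 and CCN2 are secreted into the matrix and are the standard readouts of YAP and TAZ activity, although other signals control them as well. *CCN1* (also known as CYR61, locus MSTRG.1964) ranged from 1.89 to 15.6 CPM (median 2.43) in controls and from 33.6 to 78.2 CPM (median 42.8) in NASH. The lowest animal with NASH was thus above the highest control. In counts, 5 controls had between 39 and 53 and control 32 had 340, while the animals with NASH had between 961 and 2679. *CCN1* rose 9.83-fold, log2FC 3.30 ± 0.53 (SE, edgeR adjusted p = 0.000211), and 98.2% of all genes had the same or a lower log2FC. Without control 32 the log2FC was 4.24. Over all alternatives tried, the adjusted p of *CCN1* stayed between 3.85e-11 and 0.00119.

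*CCN2* (connective tissue growth factor, locus MSTRG.17048) is a profibrotic matricellular protein and is widely used as a marker of liver fibrosis. It ranged from 4.79 to 12.7 CPM (median 9.09) in controls and from 9.10 to 27.0 CPM (median 13.9) in NASH. The groups overlapped: 4 animals with NASH were above the highest control, and NASH 20 and NASH 65 were below control 32. *CCN2* rose 1.75-fold, log2FC 0.81 ± 0.27 (SE, edgeR adjusted p = 0.0228). NASH 9 had the highest *CCN2* value of all 12 animals, and without it the log2FC was 0.58 and the call was lost (edgeR adjusted p = 0.0522, within a range from 0.00126 to 0.0522 over the alternatives). With control 32 and NASH 9, the highest animals of their groups, both left out, *CCN2* kept its call (log2 fold change 0.71, edgeR adjusted p = 0.02).

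The related genes *CCN1* and *CCN2* did not change to the same extent. Controls had log2 ratios of *CCN2* over *CCN1* from −0.30 to 2.27, averaging 1.31 ± 1.05 (SD, n = 6). Animals with NASH had ratios from −2.23 to −1.35, averaging −1.61 ± 0.32 (SD, n = 6). No animal of one group lay within the range of the other, and *CCN2* relative to *CCN1* fell by 2.92 on the log2 scale (two-sided exact permutation test over 924 divisions, p = 0.00216, which is as low as this test can go with 6 animals a group, adjusted p = 0.00866 over 4 ratios). A ratio within an animal does not depend on the scaling between libraries.

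*CCN1* varied between animals of the same group together with *EGR1* and *FOS*, immediate-early genes that encode transcription factors and are switched on within minutes of a stimulus. After the group means were removed, the genes most like *CCN1* over the 12 animals, outside the 10 genes, were *EGR1* (Pearson's r = 0.96), *FOS* (r = 0.94) and *CREB3L1* (r = 0.92), picked as the 3 highest of all genes and therefore given without a test. Control 32 and NASH 9 stood highest in their groups for *CCN1*, *EGR1* and *FOS* alike. *EGR1* was at 59.4 CPM in control 32 and between 4.19 and 15.4 CPM in the other controls, and *FOS* was at 66.1 CPM in control 32 and between 1.01 and 8.65 CPM in the other controls. NASH 9, the highest animal for *CCN1*, had 134 CPM of *EGR1* and 56.8 CPM of *FOS*, whereas the other animals with NASH had between 32.6 and 46.7 CPM of *EGR1* and between 7.04 and 12.2 CPM of *FOS*. *EGR1* was itself higher in NASH (log2 fold change 1.78, edgeR adjusted p = 0.0389), and *FOS* did not pass the threshold (log2 fold change 0.36, edgeR adjusted p = 0.784). With control 32 and NASH 9 both left out, the log2FC of *CCN1* was 4.03 (edgeR adjusted p = 4.6e-07) and so at least as large as over all 12 animals. The part of the early response genes in the *CCN1* levels was not tested.

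**Figure D2:**
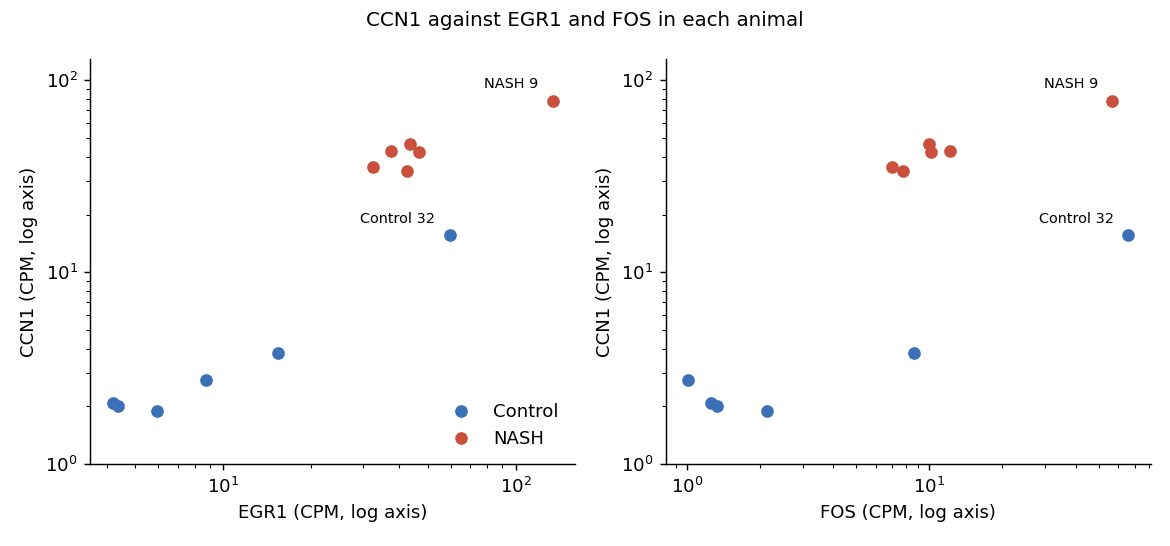
CCN1 against EGR1 (left) and FOS (right) in each animal, all in CPM on log axes, with controls in blue and animals with NASH in red. Control 32 and NASH 9 are the highest animals of their groups for all 3 genes, and control 32 has more FOS than any animal with NASH but less CCN1.

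Of the coactivators, neither passed the threshold. *YAP1* (locus MSTRG.10759) encodes YAP itself. It ranged from 68.1 to 118 CPM (median 75.6) in controls and from 70.8 to 131 CPM (median 104) in NASH. Control 5 was above 5 of the animals with NASH and NASH 41 was under 5 of the controls, so the groups overlapped. The log2FC of *YAP1* was 0.29 (SE 0.16, edgeR adjusted p = 0.137). Without control 5 it was 0.41 (edgeR adjusted p = 0.0255), and without NASH 41 it was 0.38 (edgeR adjusted p = 0.0408), in both cases past the threshold, within a range from 0.000523 to 0.279 over the alternatives.

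*WWTR1* (locus MSTRG.5675) encodes TAZ, which acts beside YAP and binds the same TEAD factors. It was narrow in controls, from 10.9 to 15.9 CPM with a median of 13.0. In NASH it ran from 2.07 to 55.2 CPM, with a median of 36.0. The animals with NASH fell into 4 with between 35.4 and 55.2 CPM, all above every control, NASH 2 with 11.1 CPM, which was in the control range, and NASH 65 with 2.07 CPM, which was under every control. The log2FC of *WWTR1* was 1.15 (SE 0.53, edgeR adjusted p = 0.0836), so the call was not reached. Without NASH 65 it was 1.39 (edgeR adjusted p = 0.0024), and with NASH 2 and NASH 65 both left out it was 1.62 (edgeR adjusted p = 1.44e-05). These animals were left out because of their *WWTR1* values, so the latter describes the remaining animals and does not replace the result over all 12. With DESeq2, *WWTR1* passed the threshold over all 12 animals (DESeq2 adjusted p = 0.0374), and over the alternatives the adjusted p ran from 1.44e-05 to 0.485. The lowest log2FC of *WWTR1* were 0.62 with limma-voom (adjusted p = 0.485) and 0.88 without NASH 20 (edgeR adjusted p = 0.188). In NASH 65, *TM4SF4* and *COMMD2*, on the nearest numbered rows, were at 0.925 and 0.902 times the median of their group, whereas *WWTR1* was at 0.0574 times it. The log2 ratio of *WWTR1* over *YAP1* was −2.62 ± 0.31 in controls and −2.34 ± 1.79 in NASH (SD, n = 6 each), a difference of 0.29 that was far inside the spread in NASH (two-sided exact permutation test, p = 0.775, adjusted p = 0.805 over 4 ratios). It ran from 0.019 without NASH 41 to 0.95 without NASH 65 (exact permutation test, adjusted p = 0.0866) when 1 animal was left out.

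The TEAD factors are the DNA-binding partners of YAP and TAZ. *TEAD2* (locus MSTRG.21357) separated the groups best of the 3 members of this family. It ranged from 6.79 to 11.1 CPM (median 9.14) in controls and from 17.9 to 25.5 CPM (median 22.03) in NASH. *TEAD2* rose 2.48-fold, log2FC 1.31 ± 0.13 (SE, edgeR adjusted p = 3.57e-06), and all 6 animals with NASH exceeded all 6 controls. Its log2FC stayed between 1.25 and 1.39 when any 1 animal was left out.

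*TEAD1* (locus MSTRG.20907) ranged from 13.9 to 50.8 CPM (median 41.3) in controls and from 8.54 to 72.6 CPM (median 64.7) in NASH. In NASH, 5 animals were above every control, and NASH 41, with 8.54 CPM, was under every control. Control 31 was the lowest control, with 13.9 CPM, and the other controls had at least 30.3 CPM. The log2FC of *TEAD1* was 0.58 (SE 0.42, edgeR adjusted p = 0.27). Without NASH 41 it was 0.80 (edgeR adjusted p = 0.0223), and with control 31 and NASH 41 both left out, again because of their *TEAD1* values, it was 0.63 (edgeR adjusted p = 0.00317), within a range from 0.00317 to 0.504 over the alternatives. The lowest log2FC of *TEAD1* were 0.41 without control 31 and 0.43 with limma-voom. *ARNTL* and *SUMO4*, on the nearest numbered rows with a symbol, were at 0.995 and 0.998 times their group's median in NASH 41, whereas *TEAD1* was at 0.132 times it. Gaps as large as those of NASH 65 in *WWTR1* and NASH 41 in *TEAD1* were uncommon. Of 10122 tested genes averaging at least 100 counts, 101 (0.998%) had an animal with NASH at least 4-fold under its group's median. *WWTR1* and *TEAD1* were 2 of them. *WWTR1* in NASH 2 and *TEAD1* in control 31 were less far under, at 0.307 and 0.336 times their group's median. Smaller gaps were more common: 759 of the 10122 genes (7.5%) had a control at least 2-fold under its group's median. Whether StringTie counted the *WWTR1* and *TEAD1* loci in full in the low animals was not tested, so the values of *WWTR1* in NASH 65 and NASH 2 and of *TEAD1* in NASH 41 and control 31 may not measure transcript levels.

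*TEAD4* (locus MSTRG.24422) had few counts, 12 to 44 for controls and 33 to 70 for NASH. It ranged from 0.615 to 2.05 CPM (median 1.395) in controls and from 1.08 to 2.38 CPM (median 1.72) in NASH, and the groups overlapped over most of their range. The log2FC was 0.28 (SE 0.27, edgeR adjusted p = 0.403). The log2 ratio of *TEAD4* over *TEAD1* was −4.63 ± 1.04 in controls and −4.75 ± 1.15 in NASH (SD, n = 6 each), and no difference was detectable (two-sided exact permutation test, p = 0.805, adjusted p = 0.805 over 4 ratios). *TEAD3*, the remaining TEAD gene, was at 4.66 ± 0.23 CPM in controls and 5.14 ± 0.96 CPM in NASH (SD, n = 6 each) and did not pass the threshold (log2 fold change 0.14, edgeR adjusted p = 0.352). *VGLL4*, which competes with YAP for the TEAD factors, had a log2FC of 0.19 (edgeR adjusted p = 0.547). As in *TEAD1*, 5 animals with NASH were above every control for *VGLL4*, from 31.6 to 37.7 CPM against 23.3 to 27.9 CPM, and NASH 41 was under every control with 9.08 CPM. Without NASH 41 the log2FC of *VGLL4* was 0.38 and passed the threshold (edgeR adjusted p = 0.000869, within a range from 0.000869 to 0.894 over the alternatives). NASH 41 was at 0.271 times its group's median, and whether the *VGLL4* locus was counted in full in this animal was not tested. This fit is named because of the *VGLL4* value of NASH 41 and does not replace the result over all animals.

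Of the 3 upstream members that restrain or modulate YAP, only *AJUBA* passed the threshold. *AJUBA* (locus MSTRG.8382) encodes a LIM protein that binds the LATS kinases and lowers the phosphorylation of YAP. It was a weakly expressed gene, with 8 to 41 counts for controls and 64 to 119 for NASH. It ranged from 0.572 to 2.102 CPM (median 0.761) in controls and from 2.24 to 3.46 CPM (median 2.80) in NASH. Controls fell into 4 animals with at most 0.780 CPM and controls 10 and 56 with 2.102 and 1.88 CPM, just under the lowest animal with NASH. *AJUBA* rose 2.50-fold, log2FC 1.32 ± 0.31 (SE, edgeR adjusted p = 0.00321), and the groups did not overlap.

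*LATS2* (locus MSTRG.4266) encodes the LATS kinase that is itself a YAP target and so closes a negative feedback. It ranged from 15.1 to 19.3 CPM (median 16.3) in controls and from 16.5 to 20.8 CPM (median 19.2) in NASH. The animals of both groups lay close together, with a coefficient of variation of 9.70% in controls and 7.68% in NASH. The log2FC of *LATS2* was 0.18 (SE 0.08, edgeR adjusted p = 0.0708). It passed the threshold with upper-quartile factors (0.26), with every row of the count table (0.27), with library size alone (0.66), without control 5 (0.23) and without NASH 65 (0.21), with adjusted p-values from 2.56e-05 to 0.211 over all alternatives. *LATS1*, the other LATS kinase gene, rose from 5.91 ± 0.89 to 7.71 ± 1.27 CPM (SD, n = 6 each, controls first), with log2FC 0.38 ± 0.13 (SE, edgeR adjusted p = 0.0237). The log2 ratio of *LATS2* over *LATS1* differed by −0.20 between NASH and controls, which was within the spread of 0.25 in controls (two-sided exact permutation test, p = 0.214, adjusted p = 0.429 over 4 ratios).

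*AMOTL2* (locus MSTRG.5580) encodes an angiomotin that holds YAP at cell junctions, and it is also induced by YAP. It ranged from 38.5 to 49.3 CPM (median 42.2) in controls and from 36.4 to 53.0 CPM (median 41.5) in NASH. The groups overlapped, with NASH 20 and NASH 65 under every control and NASH 9 above every control. Its log2FC of −0.0089 (SE 0.11, edgeR adjusted p = 0.95) was close to that of the median gene, and its sign changed with the scaling, to 0.064 with upper-quartile factors and to 0.47 with library size alone.

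**Figure D3:**
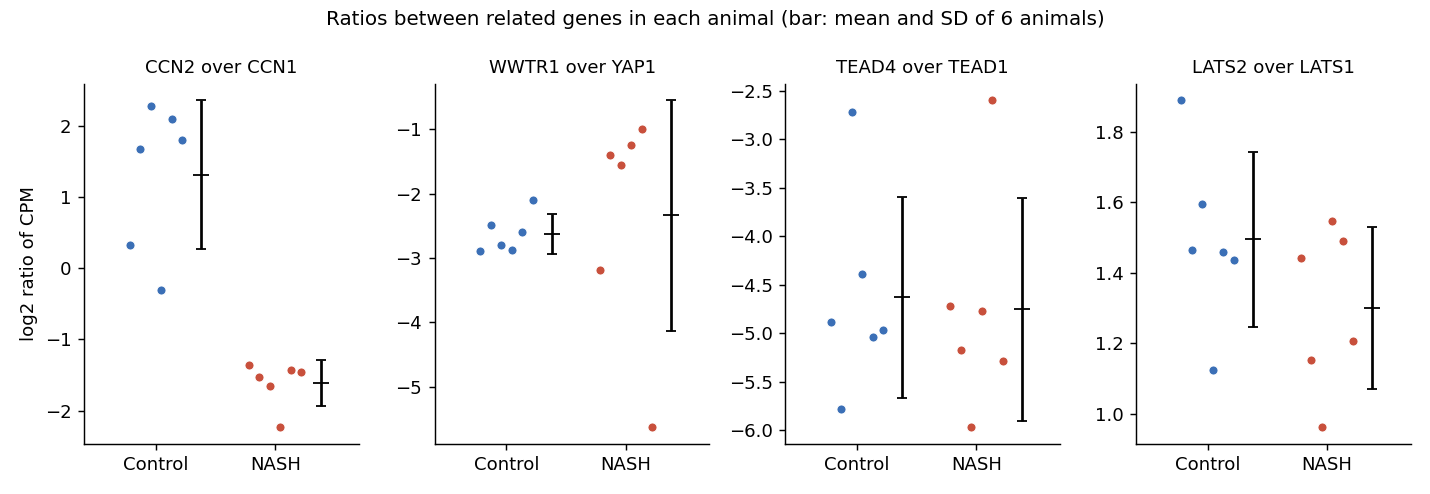
Log2 ratio of CPM of 4 pairs of related genes in each animal, with controls in blue, animals with NASH in red and the mean with its SD over 6 animals beside them. The ratio of CCN2 over CCN1 separates the groups, from −0.30 to 2.27 in controls and from −2.23 to −1.35 in NASH, and the other 3 ratios overlap.

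Between animals of the same group, the 10 genes did not vary as a block. Over their 45 pairs, the median Pearson's r of log2 CPM with group means removed was 0.08 over the 12 animals, and that of Spearman's rho was 0.189. The highest values were 0.57 for *WWTR1* and *LATS2*, 0.56 for *YAP1* and *TEAD1*, 0.49 for *TEAD4* and *LATS2*, 0.47 for *AMOTL2* and *AJUBA* and 0.46 for *CCN1* and *CCN2*, and the lowest was −0.55 for *TEAD4* and *AJUBA*. The order depends on the measure: Spearman's rho was highest for *CCN1* and *YAP1* (0.66) and *TEAD4* and *LATS2* (0.64), and it was 0.27 for *CCN1* and *CCN2*. Outside the 10 genes, the genes most like *CCN2* were *SLC18B1* (r = 0.93), *CEBPG* (r = 0.88) and *LCK* (r = 0.88), and those most like *YAP1* were *BCO2* (r = 0.91), *FAM49B* (r = 0.89) and *STIM2* (r = 0.87). These correlations are descriptions over 12 animals that share their library scaling, and they are given without a test.

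**Figure D4:**
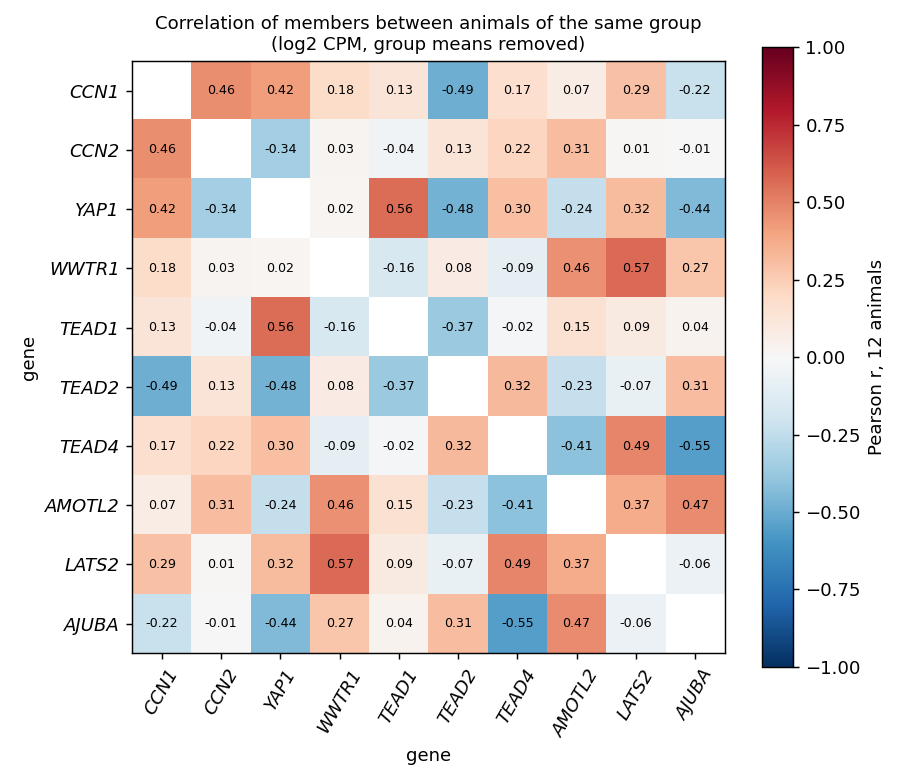
Pearson's r between the 10 genes over the 12 animals, computed from log2 CPM after the mean of each group had been removed, with red for positive and blue for negative values. Most values are weak, and the highest is 0.57 for WWTR1 and LATS2.

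The other genes of the pathway were read from a list of upstream components (kinases, scaffolds and junction proteins), of which 23 of 26 genes outside the 10 were in the table. Of these 23, 10 were higher (43.5%, against 27.9% of all genes), 1 was lower and 12 did not pass the threshold, with a median log2FC of 0.20. The groups did not overlap in 6 of them (26.1%, against 18.4% of all genes), all higher in NASH. *DLG5*, a junctional scaffold that acts on the MST kinases, rose from 14.1 ± 0.69 to 40.1 ± 5.50 CPM (SD, n = 6 each, controls first), with log2FC 1.51 ± 0.09 (SE, edgeR adjusted p = 1.37e-07). *FRMD6*, the human relative of the fly protein Expanded, rose from 44.0 ± 6.61 to 112 ± 8.87 CPM (SD, n = 6 each, controls first), with log2FC 1.35 ± 0.10 (SE, edgeR adjusted p = 4.18e-07). *PTPN14*, a phosphatase that binds YAP and is also among its targets, had a log2FC of 1.23 ± 0.16 (SE, edgeR adjusted p = 3.68e-05).

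Among the kinases, *STK4* (MST1) had the highest log2FC of the list, 1.51 (SE 0.59, edgeR adjusted p = 0.0461), with a wide spread from 3.44 to 38.9 CPM (median 6.57) in controls and from 8.79 to 50.4 CPM (median 45.1) in NASH. Control 32, at 38.9 CPM, was 5.92 times its group's median and NASH 65, at 8.79 CPM, was 0.195 times it, and whether the locus was counted in full in every animal was not tested. The call of *STK4* was lost in 9 of the 12 fits with 1 animal left out, with log2FC from 1.31 to 2.19 and adjusted p-values from edgeR from 0.00431 to 0.0885. *STK3* (MST2) did not pass the threshold (−0.14, edgeR adjusted p = 0.33). *SAV1*, the scaffold that joins the MST and LATS kinases, was the one gene that fell, though not with library size alone, from 19.7 ± 2.11 to 15.3 ± 0.95 CPM (SD, n = 6 each, controls first), with log2FC −0.36 ± 0.08 (SE, edgeR adjusted p = 0.00217). *NF2*, the upstream tumour suppressor merlin, was at 42.4 ± 2.63 and 41.9 ± 3.72 CPM (SD, n = 6 each, log2FC −0.017, edgeR adjusted p = 0.859). *SAV1* and the genes with small changes depend on the scaling: with library size alone, 20 of the 23 genes (87%, against 63.9% of all genes) were higher and none was lower, with a median of 0.67, against a shift of 0.48 of all genes.

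A signature of genes widely used as YAP and TAZ targets gave 15 genes in the table outside the 10, of 18 listed, with *PTPN14* also among the upstream components. *ANKRD1* and *F3* had fewer than 100 counts in all controls together. They reached the minimum total of 200 counts for the table only through the animals with NASH, so they had to differ and are kept out of the counts. *AJUBA* (127 counts), *TEAD4* (161) and the marker *CLDN4* (145) were also under 200 counts in all controls together. They were not under 100 and stay in the counts. Of the other 13, 10 were higher (76.9%, against 27.9% of all genes), none was lower and 3 did not pass the threshold, with a median log2FC of 0.97. The groups were fully apart, with NASH higher, in 9 of the 13 (69.2%, against 18.4% of all genes). *MYOF*, a membrane repair protein, rose from 2.38 ± 0.68 to 24.3 ± 6.63 CPM (SD, n = 6 each, controls first), with log2FC 3.34 ± 0.23 (SE, edgeR adjusted p = 2.99e-07). *CCDC80*, a matrix protein, rose from 4.42 ± 0.92 to 31.02 ± 5.71 CPM (SD, n = 6 each, controls first), with log2FC 2.81 ± 0.16 (SE, edgeR adjusted p = 1.04e-07). *GADD45A*, a stress and DNA damage response gene, had a log2FC of 1.98 ± 0.21 (SE, edgeR adjusted p = 6.93e-06), and *NUAK2*, a kinase that feeds back on the pathway, one of 1.42 (SE 0.20, edgeR adjusted p = 5.99e-05).

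*ANKRD1*, a nuclear ankyrin repeat protein and one of the most responsive YAP targets in cell culture, was nearly absent in controls. It had 2 counts in a single control and none in the other controls, and between 6 and 85 counts in the animals with NASH. In all, 254 counts of NASH stood against these 2. *F3*, which encodes tissue factor, had 57 counts in all controls together and 220 in NASH. *IGFBP3*, the most abundant binding protein of insulin-like growth factors in blood, had the lowest log2FC of the signature, −0.13 (SE 0.08, edgeR adjusted p = 0.19). The row of *AXL* in this signature carries a second symbol, *HNRNPUL1.1*, and its counts cannot be assigned to either gene. With *AXL* left out as well, 9 of 12 were higher (75%) and 8 were fully apart (66.7%), with a median log2FC of 1.02. Of the CCN family outside the 10 genes, *CCN5* was in the table, and it rose from 1.59 ± 0.62 to 18.2 ± 6.82 CPM (SD, n = 6 each, controls first), with log2FC 3.50 ± 0.29 (SE, edgeR adjusted p = 9.48e-07).

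**Figure D5:**
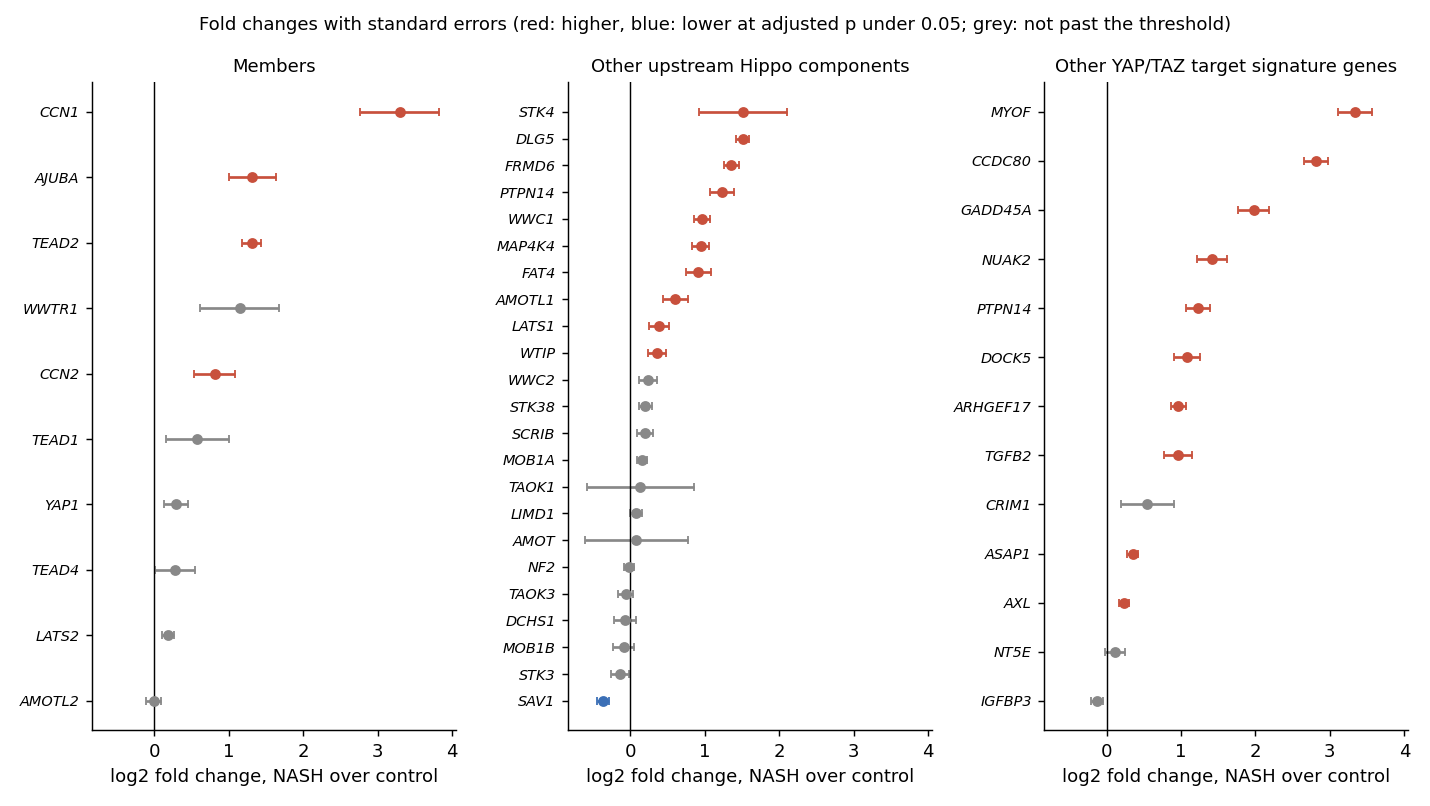
Log2 fold change of NASH over control with its standard error for the 10 genes (left), the other 23 upstream components (middle) and 13 of the other signature genes, without ANKRD1 and F3 (right), with red for higher, blue for lower and grey for genes not past the threshold of edgeR. CCN1 lies highest on the left at 3.30.

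Markers of the liver's cell types were read from the same libraries, and their counts stand against 27.9% higher and 26.0% lower among all genes. Of the stellate cell and myofibroblast markers, all 11 listed were in the table, 8 higher and 1 lower, and their summed level ran from 749 to 916 CPM (controls) and from 1623 to 3268 CPM (NASH). The highest log2FC were those of *COL1A1* (4.21), *RGS5* (2.62), *COL1A2* (2.57), *COL3A1* (2.01) and *PDGFRB* (1.79), and the lowest was that of *LRAT* (−0.57). Of the cholangiocyte markers, 7 of 8 were in the table, 6 of them higher and none lower, with summed levels from 93.8 to 143 CPM (controls) and from 350 to 604 CPM (NASH). The log2FC were highest for *CLDN4* (4.33), *EPCAM* (3.22), *KRT7* (3.09), *CFTR* (3.09) and *SPP1* (1.98). No gene of either list was at 0 in any animal. Hepatocyte markers, 7 of 8 in the table, were lower in 6 and higher in none, with sums from 99680 to 130000 CPM (controls) and from 36960 to 62540 CPM (NASH), so hepatocyte transcripts were abundant in all libraries. Log2FC there ran from −2.20 for *TTR* to −0.64 for *SERPINA1*, with *CYP2E1* at −1.93, *ARG1* at −1.30, *ALB* at −1.29 and *TAT* at −1.29. Of the endothelial markers, 7 of 8 were in the table (3 higher, 1 lower), from *LYVE1* with a log2FC of −0.81 to *VWF* with 1.46, and their sums were 503 to 690 CPM (controls) and 570 to 829 CPM (NASH). Of the macrophage markers, 5 of 8 were in the table, with sums of 292 to 517 CPM (controls) and 354 to 527 CPM (NASH). *TREM2* was the one marker with animals at 0 and had 9 counts in all controls together, so it reached the minimum total only through NASH and is given without a test. Of the other 4, 1 was higher and 1 was lower, *MARCO*, with the lowest log2FC (−1.27). The share of genes higher in NASH was 72.7% for the stellate cell and myofibroblast markers and 85.7% for the cholangiocyte markers. That of the 13 signature genes was 76.9%. The summed stellate and cholangiocyte levels thus moved in the same direction as *CCN1*, *CCN2*, *TEAD2*, *AJUBA* and most signature genes. Their part in these results was not tested.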

How the data were processed

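Liver mRNA of 12 guinea pigs (6 NASH, 6 control) was sequenced with stranded single-read libraries. The authors trimmed reads with Trimmomatic 0.38.0, mapped them with HISAT2 2.1.0 to Cavpor3.0, dropped multimapped reads, and used StringTie 1.3.6 to assemble loci and count them. They deposited raw counts per locus and rlog values on a log2 scale, which the authors made with DESeq2 for genes with a human orthologue symbol and a total of at least 200 counts. The strand setting of the counting is not given in the sources used here.

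The 39061 count rows carry no symbols. Repeating the rlog transformation with DESeq2 1.42.0 recovered the deposited values of all 11896 symbols to within 8.35e-07, from 11031 rows. Counts of these symbols were tested in R 4.3.3 with edgeR 4.0.16 (TMM factors, whole-table library sizes, robust glmQLFit, glmQLFTest), with a Benjamini-Hochberg adjusted p under 0.05 over all symbols. The SE is the absolute log2 fold change over the square root of F. Log2 CPM used a prior count of 2. Ratios were compared by exact permutation. Alternatives were RLE and upper-quartile factors, library size alone, DESeq2, limma-voom (limma 3.58.1), other filters on low counts and each animal left out. The tests were also run on simulated counts with few changed genes, balanced between the directions. These data had many DEGs and TMM factors that differed between the groups, so that run does not show how the tests behave here. Figures used Python 3.11.15 and matplotlib 3.10.9.

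The 10 genes and all lists were chosen with earlier results of these data known. Named genes were the 10 members and, per list, the highest and lowest log2 fold change and up to 5 genes past the threshold whose log2 fold change was 1 or more in size, with *LATS1*, the TEAD partners, the CCN family and 3 genes most like *CCN1*, *CCN2* and *YAP1*. *STK3*, *NF2*, *AXL*, *F3* and the genes on neighbouring rows were named after their values were seen. The cholangiocyte marker with the lowest log2 fold change is not reported here. Sequences and coordinates are not used here.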

Additional observations from a re-analysis of the deposited data

Results flagged for a closer look

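Over the 10 genes, each group of 6 animals was checked for a highest or lowest log2 CPM that stood apart from the rest by Dixon's test at 95%. Of the 20 groups, 2 had such an animal, and chance gives about 1 in 20. *CCN1* in control 32, at 15.6 CPM, stood above the other controls, which had at most 3.79 CPM. *TEAD1* in NASH 41, at 8.54 CPM, stood under the other animals with NASH, which had at least 54.0 CPM. *WWTR1* in NASH 65, at 2.07 CPM, did not reach the limit because NASH 2 was low as well.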

How the results depend on the processing

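The number of DEGs among the 10 genes was 4 and stayed between 3 and 6 when any 1 animal was left out, and it was 10 with library size alone. Among the other upstream components it was 11, between 9 and 13 with 1 animal left out, and 20 with library size alone. Among the other signature genes, with *ANKRD1* and *F3* included, it was 12 of 15 with any 1 animal left out. With library size alone it was 15, where 63.9% of all genes were higher. With filterByExpr it was 11 of 14, because *ANKRD1* was removed by that filter. These signature counts include genes that had to differ, and the counts without *ANKRD1* and *F3* were taken over all 12 animals only. Over all genes the number of DEGs was between 6046 and 6338 with 1 animal left out and 6683 with DESeq2. With every row of at least 1 count it was 10813, where 31748 rows were tested. The log2 fold change of *AMOTL2* changed sign with upper-quartile factors (0.064), library size alone (0.47), every row (0.080), both NASH 2 and NASH 65 left out (0.064), and in some cases with 1 animal left out (between −0.078 and 0.033). The difference in the log2 ratio of *TEAD4* over *TEAD1* lay between −0.56 and 0.26 with 1 animal left out, was 0.0031 without NASH 2 and NASH 65, and was 0.0099 without control 32 and NASH 9. That of *WWTR1* over *YAP1* lay between 0.019 and 0.95 with 1 animal left out, was −0.017 without control 31 and NASH 41, and without NASH 2 and NASH 65 it was 1.32 and passed the threshold (exact permutation test, adjusted p = 0.0191). That of *CCN2* over *CCN1* stayed past the threshold in every alternative, between −3.26 and −1.59. The median within-group correlation of the 10 genes was 0.189 with Spearman's rho, and 9 of 30 values compared under another scale or measure moved. Leaving out pairs of animals or signature genes was chosen after seeing the data. The causes were not tested. No paired analysis was possible because the groups share no animal numbers. Of the 10 genes, *TEAD4* and *AJUBA* had the lowest counts, down to 12 and 8, and in the signature *F3* went down to 5 and *ANKRD1* to 0.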
